A study of Danio rerio with 5 samples.

Results

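The Nodal pathway genes described here are 7 of the 22656 genes in the deposited count table. They were chosen by name: the Nodal ligand genes ndr1 (squint) and ndr2 (cyclops), the Vg1-type ligand gene gdf3 (also called dvr1), the co-receptor gene tdgf1 (one-eyed pinhead), the antagonist genes lft1 and lft2 (lefty1 and lefty2) and the transcription factor gene foxh1. Of the 8 names listed, dvr1 and gdf3 are the same gene, which the table holds as gdf3. Total RNA came from zebrafish embryos of the Tübingen strain that had been freed of chorion and yolk. There were 3 libraries from the mid-blastula transition (MBT, 4 hours post-fertilisation (hpf), sphere stage), called MBT A, B and C, and 2 libraries from 5.3 hpf (post-MBT, 30% epiboly stage), called post-MBT A and B. The labels give no mutation or treatment for either stage. Nor do they say that libraries of 1 stage stem from different clutches, and the p-values therefore measure library-to-library spread that may be technical.

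Nodal ligands are secreted proteins of the TGF-β family that induce mesoderm and endoderm at the margin of the zebrafish blastula. In zebrafish, Nodals signal as heterodimers with Gdf3, through activin-type receptors that need the EGF-CFC co-receptor Tdgf1, and the signal reaches the nucleus by Smad2 or Smad3 bound to partners such as FoxH1. The Lefty proteins are secreted antagonists whose genes are themselves Nodal targets, so that ligand and inhibitor form a feedback pair. In this species gdf3, tdgf1 and foxh1 transcripts are loaded into the egg, whereas most ndr1, ndr2, lft1 and lft2 RNA is made by the embryo.

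The libraries held between 2488983 and 3701401 counts, of which 43.0% to 51.5% fell on mitochondrial genes, which leaves 1329104 to 2075880 nuclear counts. Levels are CPM (a gene's count relative to its library's count over tested genes, scaled by TMM factors, which align the libraries on the bulk of genes). A log2 fold change sets post-MBT over MBT and is given ± SE. It is relative to the other transcripts of the libraries, since no absolute scale per embryo was used. Changes were tested with edgeR's quasi-likelihood test over 12007 genes, with Benjamini-Hochberg adjusted p under 0.05 counted as a call. Between the stages 31.0% of tested genes were called up and 31.8% down, so a call alone does not set a gene apart. When libraries were scaled by their totals alone, the median change of all genes moved from -0.04 to -0.46 on the log2 scale, and 2173 genes (18.1%) were called up and 5574 (46.4%) down in place of 3724 and 3813. Markers of differentiated tissues were close to absent: 7 of 14 were in the table, none had enough counts for a test, and the highest count was 10.

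All 7 genes were tested, and 6 were called up and 1 (gdf3) down. For the rises the background is the 31.0% of all tested genes, and for stages that do not overlap, with both post-MBT libraries higher, it is 36.3%. The filter on low counts asked for a limit to be reached in 2 of the 5 libraries. At the MBT, ndr1 reached it in 1 library and ndr2 in 0, so both were tested only through their post-MBT values. The other 5 genes reached it in 2 or 3 MBT libraries. Of these, lft1 and lft2 reached it in 2, the number needed. Their pooled MBT counts were 31 and 21, against 24 for ndr1, so they stood close to the same selection. Among the 841 tested genes that needed a post-MBT library to pass, 78.5% were called up, so the calls of ndr1 and ndr2 are a description. Without the filter ndr1, ndr2, lft1 and lft2 had log2 fold changes of 2.69, 3.64, 2.60 and 3.15 in that order, and all were called.

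The Nodal ligand gene ndr1 (chromosome 21, 20974283 to 20976449, plus strand, on the build D_rerio_Sep_2014; exonic length 1459 bp) was counted 8, 11 and 5 times in the MBT libraries A to C and 57 and 37 times in post-MBT A and B. These counts correspond to 2.89, 2.52 and 1.74 CPM at the MBT and to 18.4 and 13.8 CPM after it. Every post-MBT library lay above every MBT library, and post-MBT A was the highest. The log2 fold change was 2.73 ± 0.33, a 6.64-fold rise (adjusted p = 1.41e-11, edgeR). Pooled over the libraries of a stage, 24 counts stood against 94, a scaled ratio of 6.76 with a 95% exact counting interval of 4.28 to 11.1. Intervals of this kind treat each count as an independent molecule and leave out the spread between libraries. PCR copies are not independent molecules, so the intervals may be too narrow even for counting error.

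The second Nodal gene, ndr2 (chromosome 12, 48295205 to 48302968, plus strand; exonic length 1514 bp), was counted 2, 5 and 2 times at the MBT and 33 and 36 times after it. Its MBT levels were 0.722, 1.15 and 0.697 CPM. Their mean was the lowest of the 7 genes, although lft2 was lower in MBT B. The floor of 3 counts is 1.08, 0.688 and 1.05 CPM in MBT A, B and C. The ndr2 level lay under it in MBT A and C and above it in MBT B. After the MBT the level was 10.6 and 13.4 CPM, well above the MBT range. This is a log2 fold change of 3.68 ± 0.44, a 12.8-fold rise (adjusted p = 1.00e-11, edgeR). The size of this rise is loosely bounded, because 9 pooled MBT counts against 69 give a ratio of 13.2 with a counting interval of 6.58 to 30.1. The table's span of ascc1 encloses ndr2 on the same strand. It had 12, 37 and 11 counts at the MBT and 1 and 6 after it, which is opposite in direction to ndr2. Exon positions are not used here. Only overlapping genes with a span under 200000 bp were looked up. Without that limit 4 genes overlap ndr2, 2 overlap ndr1, 3 overlap lft1, 1 overlaps lft2 and 6 overlap foxh1.

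The Vg1-type ligand gene gdf3 (chromosome 17, 4080842 to 4093825, minus strand; exonic length 2347 bp) was already abundant at the MBT, with 297, 461 and 371 counts (107, 106 and 129 CPM), and it had 290 and 253 counts after it (93.4 and 94.0 CPM). Both post-MBT libraries lay just below all MBT libraries, as for 37.6% of all tested genes. The log2 fold change was -0.28 ± 0.10, a 1.21-fold fall (adjusted p = 0.0166, edgeR), and 31.8% of all genes were called down. This call is not stable. It was lost with the DESeq2 Wald test (adjusted p = 0.134) and without MBT C (-0.18, edgeR adjusted p = 0.162), post-MBT A (0.1) or post-MBT B (0.0865). The authors' deposited table gives gdf3 an adjusted p of 0.128. With library totals the change was -0.69 (edgeR adjusted p = 8.66e-07). The direction was down in all 13 alternatives, over a range of -0.69 to -0.18, while the size followed the scaling. Measured from the median of all genes it was -0.24 with TMM factors and -0.23 with library totals.

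The co-receptor gene tdgf1 (chromosome 10, 1927760 to 1934216, minus strand; exonic length 1791 bp) had 198, 264 and 227 counts at the MBT and 487 and 420 after it. In CPM these were 71.4, 60.6 and 79.1 at the MBT and 157 and 156 after it. The stages did not overlap, and the 2 post-MBT libraries were nearly equal. It rose by a log2 fold change of 1.17 ± 0.10, or 2.25-fold (adjusted p = 4.10e-17, edgeR), and it was 0.76 with library totals, still called.

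The antagonist gene lft1 (chromosome 20, 35171102 to 35173498, minus strand; exonic length 1371 bp) had 12, 12 and 7 counts at the MBT and 56 and 57 after it. Its level was 4.33, 2.75 and 2.44 CPM at the MBT and 18.0 and 21.2 CPM after it. MBT A was the highest of its stage and still lay well under both post-MBT libraries. The log2 fold change was 2.64 ± 0.29, a 6.22-fold rise (adjusted p = 1.22e-12, edgeR). The pooled ratio of 31 against 113 counts was 6.29 with a counting interval of 4.19 to 9.68.

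Its paralog lft2 (chromosome 17, 8151004 to 8155713, minus strand; exonic length 1286 bp) had 8, 4 and 9 counts at the MBT and 63 and 51 after it. In CPM it stood at 2.89, 0.918 and 3.14 at the MBT and at 20.3 and 19.0 after it. MBT B was low within its stage, and no MBT library came near the post-MBT values. Its rise was 9.13-fold, a log2 fold change of 3.19 ± 0.33 (adjusted p = 3.44e-14, edgeR). Pooled, 21 counts stood against 114, a ratio of 9.37 with a counting interval of 5.84 to 15.7.

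The gene of the nuclear partner FoxH1, a forkhead factor that recruits activated Smads to DNA, lies at chromosome 12, 13686246 to 13692367 (minus strand; exonic length 3382 bp). It was the most highly counted of the 7, with 700, 1135 and 759 counts at the MBT and 1386 and 1163 after it. Levels were 253, 260 and 264 CPM at the MBT and 446 and 432 CPM after it, with little spread in either stage. The log2 fold change of foxh1 was 0.76 ± 0.07, a 1.69-fold rise (adjusted p = 2.32e-15, edgeR). With library totals the log2 fold change was 0.35, still called (edgeR adjusted p = 0.00147). Measured from the median of all genes it was 0.80 with TMM factors and 0.81 with library totals.

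**Figure D1:**
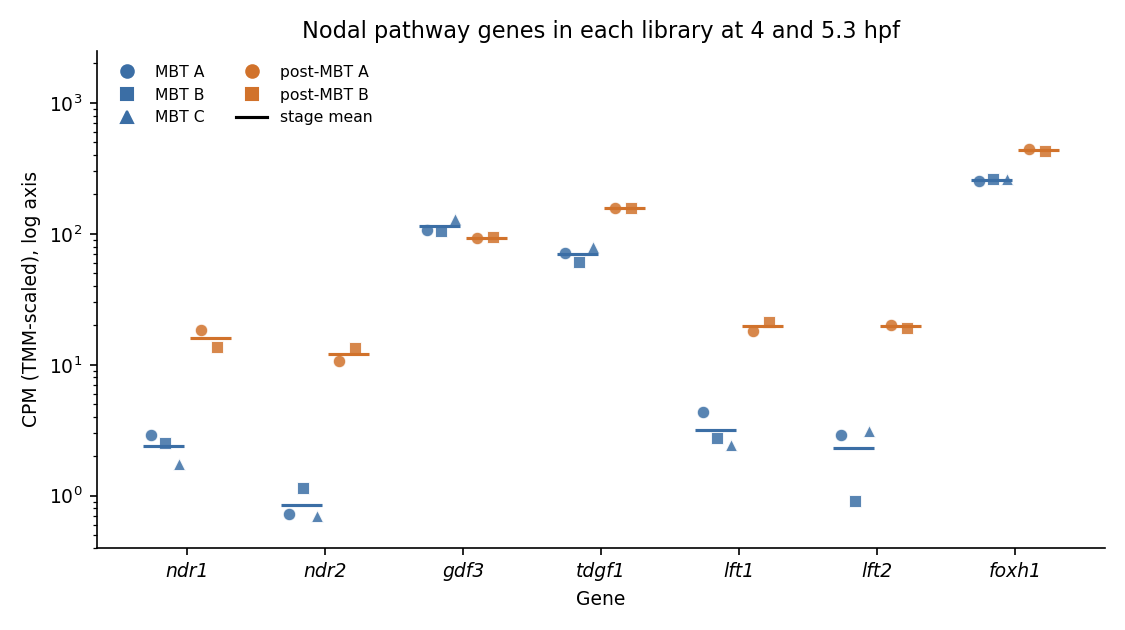
CPM of the 7 genes (log axis) in each library, with MBT in blue and post-MBT in orange; horizontal bars are stage means (n = 3 and n = 2). The genes ndr1, ndr2, lft1 and lft2 move from 0.697 to 4.33 CPM at the MBT up to 10.6 to 21.2 CPM, whereas gdf3, tdgf1 and foxh1 stand at 60.6 CPM or more in every library.

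The filter favours large rises among genes with low MBT levels, so the sizes below are a description. The 4 genes that started under 5 CPM rose between 6.22-fold and 12.8-fold, tdgf1 and foxh1 rose 2.25-fold and 1.69-fold, and gdf3 fell 1.21-fold. Among the changes of all tested genes, ndr2 stood at percentile 98.6, lft2 at 97.9, ndr1 at 97.0, lft1 at 96.7, tdgf1 at 86.5, foxh1 at 79.0 and gdf3 at 41.3. The authors' deposited table has its own DESeq2 log2 ratio with 4 hpf over 5.3 hpf, which is negative for a gene that rose. It gives -2.47 for ndr1, -3.11 for ndr2, -2.42 for lft1, -2.84 for lft2, -1.16 for tdgf1, -0.77 for foxh1 and 0.27 for gdf3. That order of sizes is the same as in the edgeR fit, with smaller values for the 4 low genes. The authors' deposited table gives no exon with a changed share for any of the 7 genes.

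**Figure D2:**
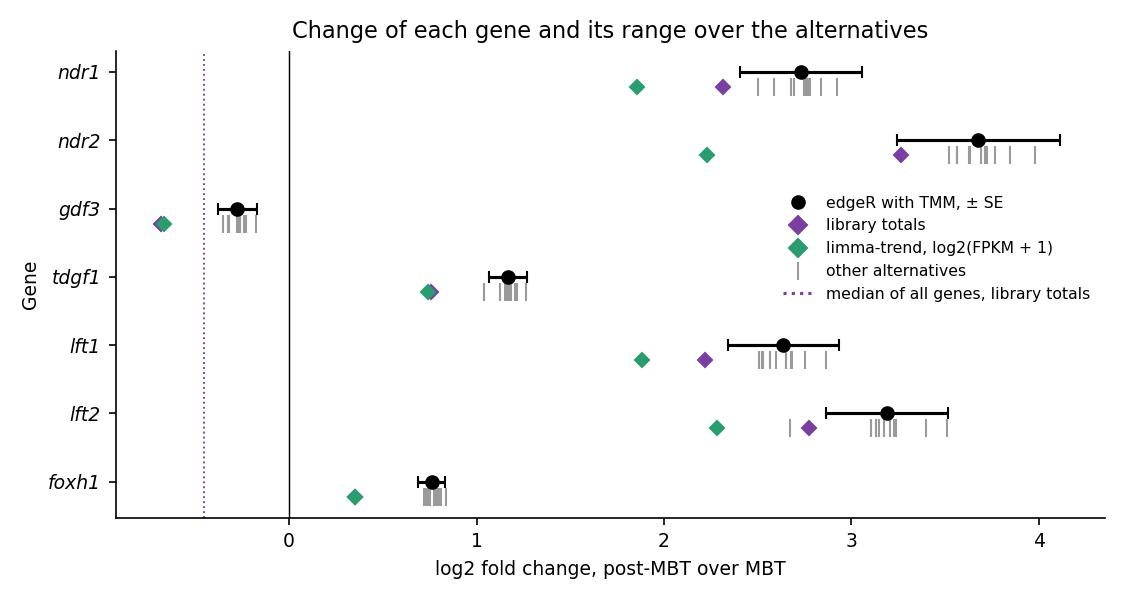
Log2 fold change, post-MBT over MBT, of each gene with edgeR and TMM factors (black, ± SE) and under each of the 13 alternatives; the dotted line is the median change of all genes with library totals (-0.46). All alternatives keep the sign of the change for each of the 7 genes; limma-trend on log2(FPKM + 1), where FPKM is the count per kilobase scaled to the library total and which understates the change of low genes, gives the smallest rises of ndr1 (1.86), ndr2 (2.23), lft1 (1.88), lft2 (2.28) and tdgf1 (0.74).

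Levels were then compared between genes after division by exonic length, as CPM per kilobase. At the MBT the order was foxh1 (76.6 ± 1.78, SD, n = 3), gdf3 (48.6 ± 5.61), tdgf1 (39.3 ± 5.19), lft1 (2.31 ± 0.739), lft2 (1.80 ± 0.945), ndr1 (1.63 ± 0.401) and ndr2 (0.565 ± 0.167) CPM per kilobase. Neighbours did not overlap between libraries, except lft1 with lft2 and lft2 with ndr1. The step from tdgf1 to lft1 was 17.0-fold. After the MBT the order was foxh1 (130 ± 2.93, SD, n = 2), tdgf1 (87.3 ± 0.275), gdf3 (39.9 ± 0.199), lft2 (15.3 ± 0.731), lft1 (14.3 ± 1.63), ndr1 (11.0 ± 2.23) and ndr2 (7.93 ± 1.29) CPM per kilobase. Here only lft2 and lft1 overlapped, and the step from gdf3 to lft2 was 2.62-fold. Among tested genes, ndr2 moved from percentile 3.79 of the level per kilobase to percentile 55.6 and ndr1 from 14.3 to 64.5, while foxh1 stood at 97.2 and 97.7.

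The genes gdf3 and tdgf1 exchanged places. There were 1.14, 1.33 and 1.25 gdf3 counts per tdgf1 count (per kilobase) in the MBT libraries A to C and 0.454 and 0.460 in post-MBT A and B. This ratio does not depend on the scaling of the libraries, and the stages did not overlap. It was chosen after its values were seen, so no test is given.

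Proportions within a library, which no scaling of libraries can move, were used to ask whether paralogs and opposing signals changed by different amounts. With 3 libraries against 2 there are 10 splits, so an exact permutation test cannot go below p = 0.1. The ratio of ndr1 to ndr2 (counts per kilobase) was 4.15, 2.28 and 2.59 in the MBT libraries A to C and 1.79 and 1.07 in post-MBT A and B. All 3 MBT libraries were higher, and the mean log2 ratio was lower after the MBT by -1.07 (2-sided exact permutation p = 0.1, the smallest possible). The MBT ratios rest on 2 to 5 ndr2 counts each. Without post-MBT B the difference was -0.70.

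The ratio of lft1 to lft2 was 1.41, 2.81 and 0.730 at the MBT and 0.834 and 1.05 after it. The post-MBT values lay inside the MBT range, and the difference in log2 ratio was -0.61 (2-sided exact permutation p = 0.5). For this pair 1 library sets much of the difference: without MBT B, where lft2 had 4 counts, it was -0.12, and without MBT C it was -1.09.

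The summed Lefty level over the summed Nodal level (ndr1 and ndr2) was 2.20, 1.09 and 2.55 at the MBT and 1.48 and 1.65 after it. The stages overlapped, and the difference in log2 ratio was -0.23 (2-sided exact permutation p = 0.8). It was 0.01 without MBT C and -0.60 without MBT B. In CPM per kilobase the Lefty sum rose from 4.11 ± 1.34 to 29.6 ± 0.896 and the Nodal sum from 2.20 ± 0.472 to 18.9 ± 0.943 (SD, n = 3 and n = 2). There were more Lefty than Nodal counts per kilobase in 5 of 5 libraries. In MBT B this rests on the division by length alone. The raw counts there were equal in sum, 12 and 4 for lft1 and lft2 and 11 and 5 for ndr1 and ndr2.

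The makeup of the ligand pool was compared in the same way. The share of gdf3 among gdf3, ndr1 and ndr2 counts per kilobase was 94.9%, 94.8% and 97.1% in the MBT libraries A to C and 67.0% and 68.7% in post-MBT A and B. The difference was -27.7 percentage points (2-sided exact permutation p = 0.1, the smallest possible), and it was -20.2 with raw counts not divided by length. Over the single libraries left out it lay between -28.6 and -26.9. Put the other way, gdf3 counts per kilobase exceeded those of both Nodal genes together 23.3 ± 8.63-fold at the MBT (SD, n = 3) and 2.11 ± 0.116-fold after it (SD, n = 2). Likewise, there were 18.8 ± 6.93 tdgf1 counts per kilobase for each Nodal count per kilobase at the MBT and 4.62 ± 0.216 after it. The MBT values of this paragraph rest on 8, 11 and 5 ndr1 counts and 2, 5 and 2 ndr2 counts. They largely restate the rises of ndr1 and ndr2 given above and are no separate result.

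**Figure D3:**
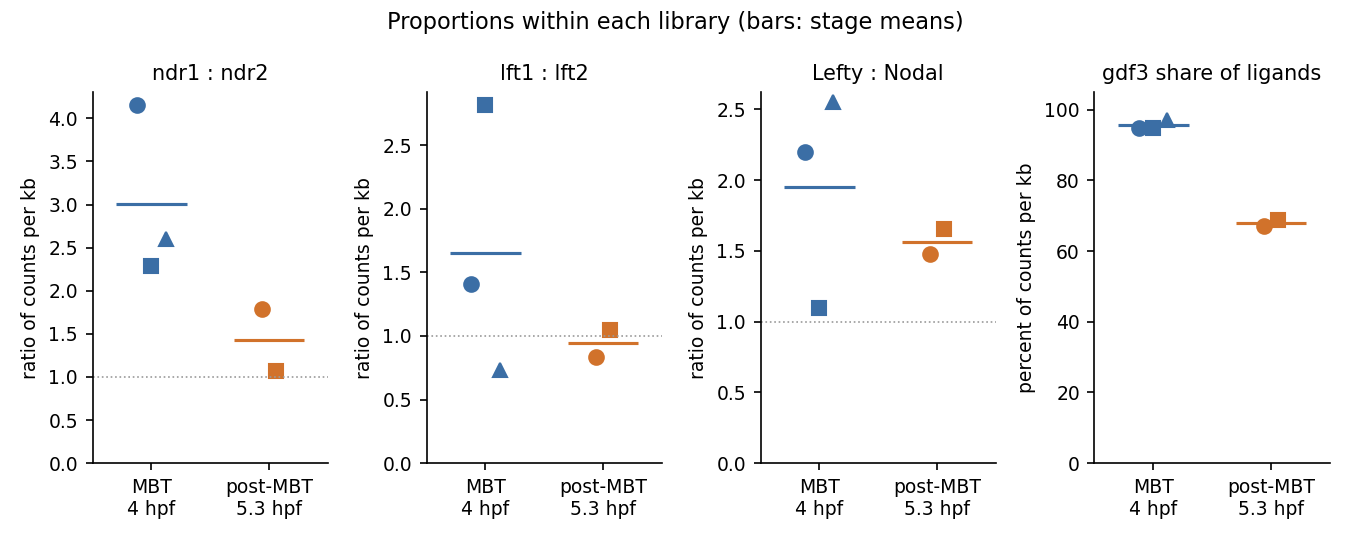
Ratios of counts per kilobase within each library for ndr1 to ndr2, lft1 to lft2 and Lefty to Nodal, and the percent of the ligand counts per kilobase held by gdf3; points are libraries and bars stage means (n = 3 and n = 2). The gdf3 share separates the stages (94.8% to 97.1% against 67.0% to 68.7%), whereas the lft1 to lft2 and Lefty to Nodal ratios overlap between them.

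The libraries are of bulk embryos freed of chorion and yolk, in which fewer cells of a type and less RNA per cell cannot be told apart. Marker genes of the extraembryonic tissues also moved with the stage. Enveloping layer markers rose in 7 of 7 cases, of which 1 (cyt1) was tested only through its post-MBT values and had no count at the MBT. The background for this count and the next is the 31.0% of all tested genes called up. The summed level of the enveloping layer markers was 109 to 142 CPM at the MBT and 971 to 991 CPM after it. Markers of the yolk syncytial layer, which itself expresses Nodal genes and can be partly lost with the yolk, rose in 5 of 6 cases and mxtx2 fell, but those 5 were tested only through their post-MBT values, so the count is no support for a rise. Their sum went from between 17.4 and 19.9 CPM to between 88.9 and 98.1 CPM, with hnf4a at 0 counts in the MBT libraries. Their part in the rise of ndr1, ndr2, lft1 and lft2 was not tested.

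Other genes of the pathway were read from lists chosen with earlier results of these data known. Their counts are to be read against the 31.0% of all tested genes called up and the 31.8% called down. Of 26 tested Nodal target genes of mesendoderm and organizer, 25 rose and none fell, with a median log2 fold change of 3.61 against -0.04 over all tested genes. The enveloping layer markers had a median of 2.88, so large rises are not particular to the targets. No tested target was lower at an unadjusted p under 0.05 in edgeR, and none was called down with the DESeq2 Wald test or limma-trend. Of the 26, 9 were tested only through their post-MBT values. The lists are not independent. The target list shares gata6 with the yolk syncytial layer markers, mixl1 with the nuclear partners of Smads and dusp4 with the intracellular inhibitors. The leading members were ta (brachyury), a T-box gene of mesoderm, which stood at 8.91 ± 1.76 CPM at the MBT and 412 ± 32.2 CPM after it, tbx16, also a T-box gene (log2 fold change 2.75 ± 0.08), and the homeobox gene mixl1 (4.41 ± 0.13). The Wnt antagonist gene frzb was the tested member without a call (log2 fold change 0.24 ± 0.33). A further 4 targets in the table had too few counts for a test, so the count of rises leaves them out. Their MBT and post-MBT counts were 5, 4 and 6 against 7 and 4 for sox17, and 3, 2 and 2 against 1 and 1 for otx2. They were 0, 1 and 2 against 5 and 10 for mespaa, and 1, 0 and 0 against 1 and 4 for hhex.

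Of 5 tested activin-type receptor genes 2 rose and 1 fell, with a median of 0.09, and these shares are near the 31.0% and 31.8% of all tested genes. The type I receptor gene acvr1b had 124 ± 11.6 CPM at the MBT and 184 ± 0.589 CPM after it, a rise, and so did tgfbr1b, a type I receptor gene of the wider TGF-β family (3.80 ± 1.26 and 15.8 ± 0.836 CPM). The type II receptor gene acvr2aa fell, with 84.9 ± 1.46 CPM before and 28.9 ± 5.86 CPM after. Scaled by library totals, 1 receptor gene rose and 3 fell, and acvr1b had no call (0.15, edgeR adjusted p = 0.244).

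Among Smads and their nuclear partners 4 of 10 rose and 4 fell, with a median of 0.15, also near those 2 shares, and with library totals 3 rose and 5 fell. The Nodal signal transducer gene smad2 fell (197 ± 9.87 CPM before, 124 ± 9.12 CPM after; log2 fold change -0.66 ± 0.09), while foxh1, its DNA-binding partner, rose. The T-box gene eomesa, whose maternal product cooperates with Nodal signals in endoderm, also fell (122 ± 7.24 and 43.8 ± 3.71 CPM). Both smad3a (-2.10 ± 0.70) and smad3b (-1.19 ± 0.43) were called down, but at under 6 CPM at the MBT, and neither was called with the DESeq2 Wald test or without post-MBT B. The rises were mixl1, which is also counted among the Nodal targets, tcf3a (16.5 ± 2.08 to 47.9 ± 1.49 CPM), gtf2ird1 and ep300b.

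Genes of ligand processing and extracellular modulation gave 1 call up among 5 tested genes and none down, also at an unadjusted p under 0.05 in edgeR (median -0.07). Of the proprotein convertase genes, furinb had a log2 fold change of -0.57 ± 0.41 and pcsk5b of -0.54 ± 0.32, neither called (edgeR). With library totals both were called down among 3 falls, with limma-trend both were called, and with the DESeq2 Wald test no member was. The call of tmed2, a cargo receptor gene of the secretory pathway (0.26 ± 0.11), was lost in 8 of 13 alternatives, and its sign turned with library totals (-0.15) and limma-trend (-0.15). The third Nodal gene, spaw (southpaw), known for left-right patterning at later stages, had no count at the MBT and 3 and 1 counts after it, and dand5, its antagonist gene, had 1 count in all. Both were under the limit for a test.

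Among intracellular inhibitors and RNA-level repressors 9 of 13 rose and 3 fell, with a median of 0.80, and with library totals 7 rose and 4 fell. The gene of Ybx1, which binds squint RNA and blocks its translation in the early zebrafish embryo, rose (226 ± 14.7 CPM at the MBT, 684 ± 41.9 CPM after it). The Smad co-repressor gene tgif1 rose by a log2 fold change of 1.72 ± 0.09, and dusp4, a MAP kinase phosphatase gene that also stands among the Nodal targets, by 1.97 ± 0.13. The falls were smurf1 (-0.53 ± 0.10), rnf111 (-0.69 ± 0.10) and pmepa1 (-1.01 ± 0.45), the last without a call in 7 of the 11 alternatives that tested it. The ubiquitin ligase encoded by rnf111 is known in mouse to promote Nodal signalling, so its place in a list of inhibitors does not match its role.

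Of 5 tested genes for maternal dorsal inputs and ventral repressors 4 rose and none fell, also at an unadjusted p under 0.05 in edgeR (median 3.14). With library totals and with limma-trend 1 was called down, and with the DESeq2 Wald test none was. The ventral repressor genes vent, ved and vox rose, with log2 fold changes of 4.72 ± 0.17, 3.14 ± 0.13 and 3.63 ± 0.18. The list median is the value of ved, so it does not describe the dorsal inputs. Of these, ctnnb1 rose by 1.08 ± 0.07, and ctnnb2 had no call (-0.09 ± 0.09). The gene dharma had too few counts for a test (1, 5 and 2 at the MBT, 3 and 1 after it).

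**Figure D4:**
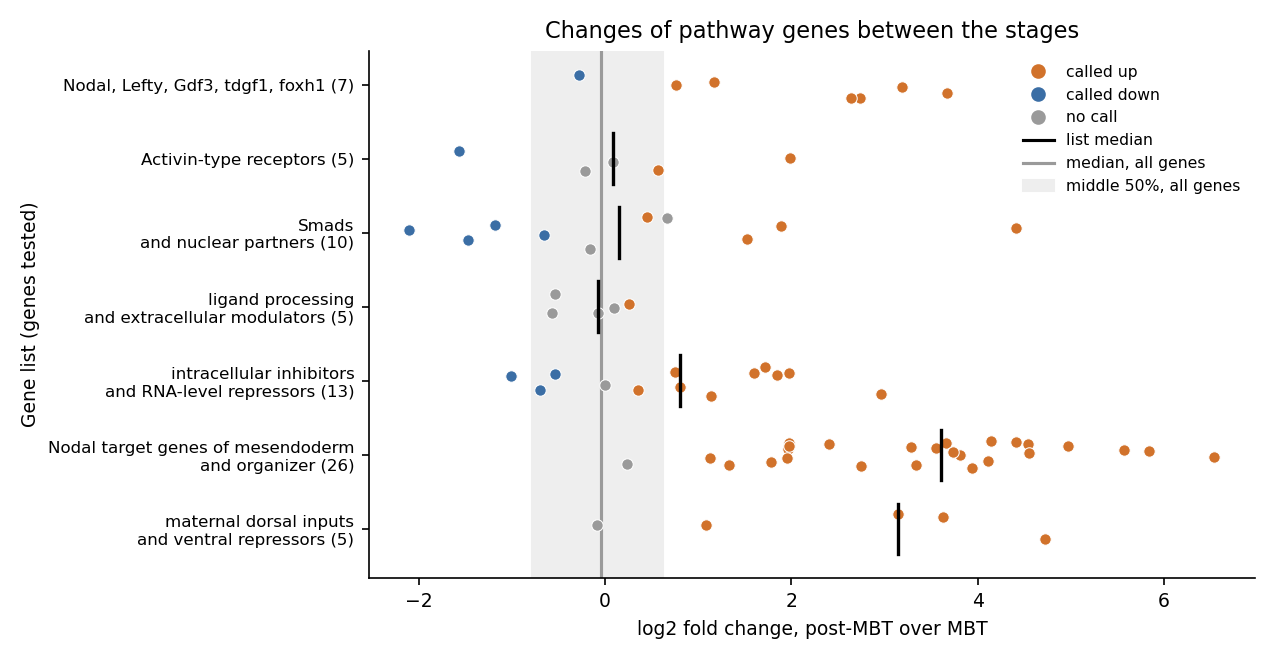
Log2 fold change, post-MBT over MBT, of each tested gene of the pathway by list, with calls in orange (up), blue (down) and grey (none), list medians as black bars, and the median and middle 50% of all tested genes as grey line and band. The medians of the target genes (3.61) and of the maternal dorsal inputs and ventral repressors (3.14) lie to the right. Of the 26 targets, 9 were tested only through their post-MBT values. The inhibitors and repressors have a median of 0.80. Receptors (0.09), Smads and partners (0.15) and processing genes (-0.07) are centred near the median of all genes.

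The genes whose levels were most like those of each member over the 5 libraries were found by the distance in log2(CPM per kilobase + 1) among 9092 other tested genes with a symbol. For ndr1 they were cdh2 (N-cadherin; distance 0.265, log2 fold change 2.59) and aim1b (0.378; 2.94), and for ndr2 arhgef2 (0.346; 3.79) and frs2a (0.358; 3.38). For lft1 the nearest was foxo3b (0.409; 2.28), and for lft2 they were scamp5a (0.504; 3.12) and tacc1 (0.731; 2.88). For gdf3 they were calr3b (0.114; -0.27) and gigfy2 (0.221; -0.33), for tdgf1 yth2 (0.212; 1.18) and sltm (0.267; 1.19), and for foxh1 homeza (0.160; 0.64) and znf281b (0.187; 0.65). Within a distance of 1 there were 17 genes for lft2, 48 for lft1, 50 for ndr1 and 52 for ndr2, against 130 for foxh1, 229 for tdgf1 and 311 for gdf3. The likeness is mostly the stage difference and the level, since 5 libraries of 2 stages hold little else.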

How the data were processed

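Counts of alignments per gene and library were deposited by the authors on the build D_rerio_Sep_2014, per the file headers. Novoalign 2.8 and DESeq2 stand in the submitters' processing notes. The log2 ratios and the scores (Phred-scaled adjusted p-values) are the authors', per the file headers. Strand and the handling of reads with several matches are not given in the sources used here. Count columns name the stage and carry an index that is not matched to the replicate numbers of the labels. Libraries were therefore lettered in column order. A further 10 columns of values per library were not used. From the counts, edgeR 4.0.16 (R 4.3.3, filterByExpr with a count minimum of 10, TMM, robust quasi-likelihood test) was fitted to all 5 libraries, and p-values were adjusted over all 12007 tested genes. The DESeq2 1.42.0 Wald test and limma 3.58.1 (trend, on log2(FPKM + 1) with FPKM computed from the counts, a choice made after seeing the data) were alternatives. Each was also run on simulated counts, in which few genes changed and all genes shared the same dispersion. That setting is simpler than these data, so it does not show how the tests perform here. A count has a sampling error of 31.6% at 10 counts and of 10.0% at 100. Libraries of a stage differed beyond sampling noise in every pair (chi-square over its degrees of freedom, 1.28 to 5.20), and each counted as 1 replicate. This measure includes the mitochondrial genes. It was highest for MBT B with MBT C, where these genes held 43.0% and 50.6% of counts. It was lowest for the post-MBT pair, with 51.3% and 51.5%. How much of the measure follows the mitochondrial share was not tested. The genes and lists were chosen with earlier results of these data known. Of each list the text names the 3 members with the smallest adjusted p and every called member against its majority, and other members were named after their values were seen. For lft1, the second gene of like level is not reported here.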

Additional observations from a re-analysis of the deposited data

How the results depend on the processing

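No paired analysis was possible because the labels give no pairing of libraries between the stages. The count columns also carry no replicate number of the labels. The rises of ndr1, ndr2, lft1, lft2, tdgf1 and foxh1 kept their direction in all 13 alternatives. All 6 were also called with library totals, no filter, the DESeq2 Wald test and limma-trend. Since ndr1 and ndr2 passed the filter only through their post-MBT values, their calls remain a description. The alternatives reuse the same libraries and are no separate evidence. The fall of gdf3 kept its direction but lost its call with the DESeq2 Wald test (-0.27) and in 3 of the 5 fits without a single library (-0.28 to -0.18), so the number of these 7 genes called down was 0 with DESeq2 and 0 to 1 without single libraries. Post-MBT fits without a library assume that the lone library varies like the others. The Lefty to Nodal ratio difference lay between -0.60 and 0.0096 without single libraries, and the cause of its change of sign was not tested. Library totals and limma-trend gave 2173 and 2139 genes up, and DESeq2 gave 2539 down.

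Among lists, activin-type receptors had 1 up and 3 down with library totals and with limma-trend, 2 down with no filter and 1 to 2 down without single libraries. Processing genes had 0 up and 3 down with library totals, 0 up and 2 down with limma-trend, 0 up with no filter, DESeq2 or the offset for exonic length, and 0 to 1 up without single libraries. Smads and partners had 2 down with DESeq2 and 2 to 4 without single libraries. Maternal dorsal inputs and ventral repressors had 1 down with library totals and limma-trend. The log2 fold change of tmed2 turned to -0.15 with library totals and with limma-trend. Neither limma-trend nor the ratios were run on the deposited FPKM columns. limma-trend on FPKM computed from the counts took their place and was chosen after seeing the data. Few counts of ndr2 and lft2 at the MBT limit their fold changes.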
